A study of Mus musculus with 6 samples.

Results

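The genes described here are 10 mouse genes of cell survival, growth and gene regulation that have been named in the literature as targets of the miR-290 and miR-302 microRNA families: Casp2, Ei24, Cdkn2aip, Wee1, Fbxl5, Tnfaip1, Rhoc, Txnip, Mbd2 and Irf2. They were found by symbol among the probe sets with exactly 1 listed gene, and each of the 10 had 1 probe set. They are 10 of 19938 genes measured. The study recorded gene expression on 6 Affymetrix arrays in Dicer Fx/Fx embryonic stem cells, which all carry Dicer alleles flanked by recombination sites. In 1 group of 3 arrays the alleles had been deleted by tamoxifen, which was present for 3 days, and RNA was taken 2 days after its end, on day 5. In the other group of 3 arrays the cells were untreated and kept their alleles, and no day of collection was given for them. The labels name neither the recombinase that tamoxifen switches on nor the number of clones, and give no sign of whether each replicate was a culture of its own. P-values here therefore cover the spread among the arrays alone, and that spread may be technical. Wild-type E14 cells given tamoxifen are mentioned in the labels' protocols and were not analysed here, so tamoxifen and the loss of Dicer cannot be told apart.

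Dicer cuts hairpin precursors into mature microRNAs, which guide Argonaute proteins to messenger RNAs that pair with the seed, the stretch near the microRNA's 5′ end. Pairing lowers the stability and the translation of the target, so a target's messenger RNA can be more abundant where the microRNA is missing. The miR-290 cluster is the main source of microRNAs in mouse embryonic stem cells, and the miR-302 cluster is its close relative of the primed epiblast; both are known for their part in the rapid cell cycle and the survival of these cells.

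The sequences below are shown because the 10 genes were brought together as described targets of these microRNA families. They are mature 3p arms as listed by RefSeq (GRCm38.p6), 5′ to 3′, with the seed, bases 2 to 8, in capitals. The miR-290 cluster arms in that list lie at chr7:3218638-3220837 and those of miR-302 at chr3:127545275-127545687.
miR-291a-3p: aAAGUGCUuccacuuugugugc
miR-294-3p: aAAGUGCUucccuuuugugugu
miR-295-3p: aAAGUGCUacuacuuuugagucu
miR-302b-3p: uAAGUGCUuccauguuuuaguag
miR-302d-3p: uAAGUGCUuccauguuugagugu
miR-290a-3p: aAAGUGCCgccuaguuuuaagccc
miR-291b-3p: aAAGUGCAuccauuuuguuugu
miR-302c-3p: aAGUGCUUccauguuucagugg
The first 5 share the seed AAGUGCU, which is found in 5 of the 1679 mature sequences of the RefSeq list, all of them from these clusters. The seeds of miR-290a-3p and miR-291b-3p differ from it in the last letter, and that of miR-302c-3p as listed is moved by 1 base. The list holds 8 such arms of the miR-290 cluster and 3 of miR-302. Of these, miR-290b-3p, miR-292b-3p and miR-293-3p have other seeds and are not shown. The list had no entry for miR-292a-3p or miR-302a-3p, so the seed count covers listed arms alone. Messenger RNA target sites and the microRNAs' own levels were not examined here.

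Of the 10 genes, Casp2, Ei24, Mbd2 and Tnfaip1 rose after tamoxifen, 0 fell and 6 were not called. A gene was called when limma's test across all genes gave a Benjamini-Hochberg adjusted p under 0.05. By the same rule 7.78% of all 19938 genes were called, 3.79% higher and 3.99% lower. At an unadjusted limma p under 0.05, 6 of the 10 were higher and 1 was lower, against 24.5% of all genes in either direction. The median log2 change of the 10 was 0.25, against 0.01 over all genes. The 3 tamoxifen values lay above all 3 untreated values for 6 of the 10, as they did for 14.5% of all genes, and below them for Fbxl5, as for 14.8% of all genes. With 3 arrays against 3, an exact two-sided permutation test of a single gene cannot go below p = 0.1. The genes were chosen as described targets with earlier results of these arrays known, so these counts describe them and are no test of the set.

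The deletion was visible in Dicer1 itself (probe set 10402444), whose log2 values were 9.53, 9.48 and 9.69 in tamoxifen cells and 11.43, 11.36 and 11.48 in untreated cells, 3.62-fold lower after tamoxifen. The array medians lay between 7.19 and 7.26, below the Dicer1 signal that remained after tamoxifen. How complete the deletion was, and how far microRNAs were lost, was not measured. Of 10 embryonic stem cell marker genes 0 were called by limma, and at an unadjusted p under 0.05 there were 0 higher and 4 lower. With the replicate number as a block 3 of them, Fgf4, Utf1 and Tdgf1, were called lower (limma adjusted p = 0.00835, 0.0193 and 0.0326), where 9.54% of all genes were. Their mean log2 value was 12.39 to 12.50 in tamoxifen cells and 12.51 to 12.61 in untreated cells, ranges that lay close and did not overlap. None of 30 measured marker genes of feeder fibroblasts, primitive endoderm, trophoblast and neural or mesodermal cells was called by limma. An unadjusted limma p under 0.05 was reached by 4 that were higher and 3 that were lower. By that p, 2283 of all 19938 genes were higher and 2602 lower. With the block 3 of the 30 were called higher and 4 lower, where 7.87% of all genes were called higher. The mean log2 values of those 4 lists overlapped between the groups. The part of the marker shift in the results below was not tested. In a bulk sample, fewer cells of a type and less RNA per cell cannot be told apart.

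**Figure D1:**
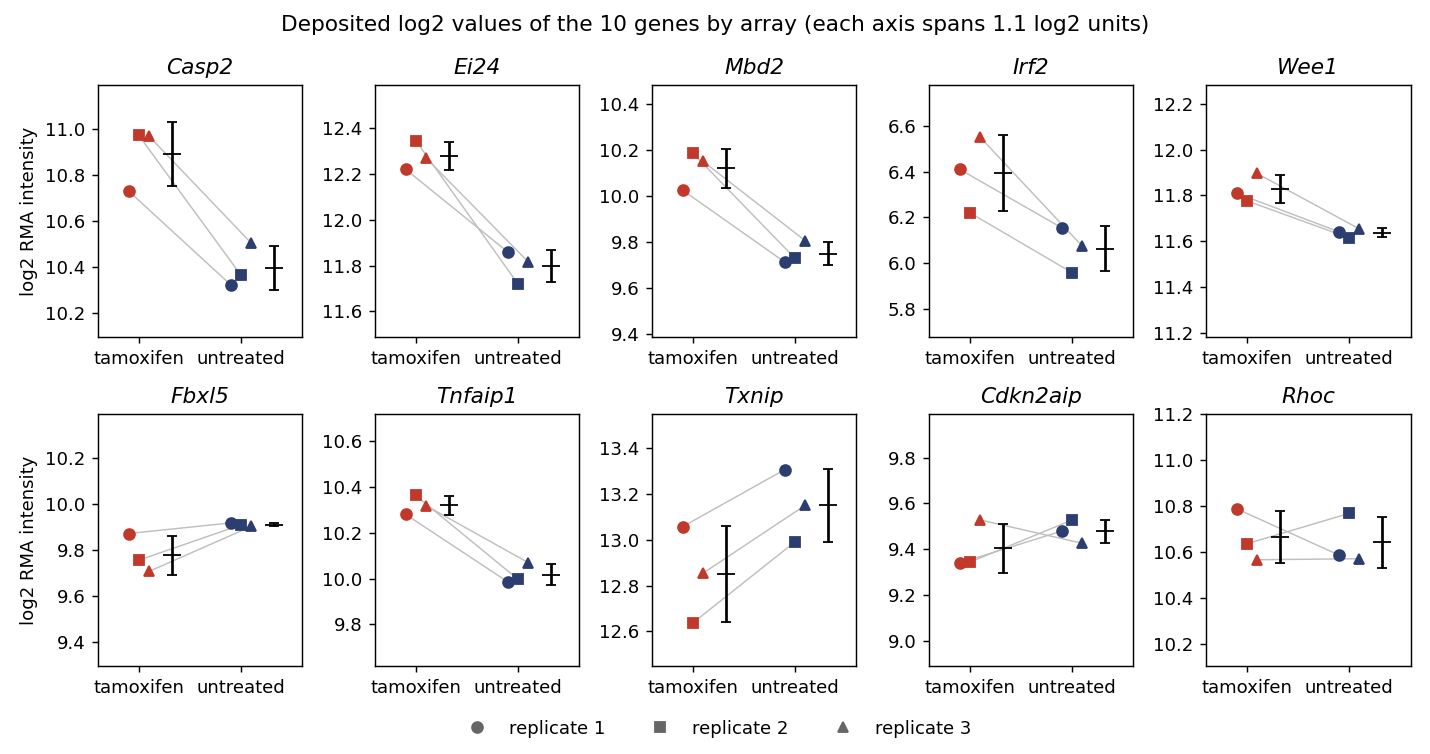
Log2 RMA intensity (y axis) of the 10 genes in the 3 tamoxifen arrays (red, left) and the 3 untreated arrays (blue, right); marker shapes give the replicate number, grey lines join equal numbers, and black bars show the mean and SD of each group. Casp2, Ei24, Mbd2, Irf2, Wee1 and Tnfaip1 have all tamoxifen points above all untreated points, Fbxl5 has them below, and Txnip, Cdkn2aip and Rhoc overlap.

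Among the genes of cell death, Casp2 and Ei24 rose and Cdkn2aip was not called. Casp2 encodes an initiator caspase that is activated on a platform built from the adaptors Pidd1 and Cradd, for instance after DNA damage. Casp2 (probe set 10537728) had log2 values of 10.73, 10.97 and 10.97 in tamoxifen cells and 10.32, 10.36 and 10.50 in untreated cells. The lowest tamoxifen array, replicate 1, was still above the highest untreated array, replicate 3. The difference was 0.50 ± 0.09 on the log2 scale (limma SE), or 1.41-fold with a 95% confidence interval from 1.23 to 1.61 and an adjusted p of 0.0135 (limma). A larger positive change was seen in 1.45% of all genes.

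Ei24 encodes a membrane protein of the endoplasmic reticulum, first found as a gene induced by p53 in dying cells and later as a factor of autophagy. Ei24 (probe set 10592237) had log2 values of 12.22, 12.34 and 12.27 in tamoxifen cells against 11.86, 11.72 and 11.82 in untreated cells. Within each group the values lay close together, with SDs of 0.06 in tamoxifen cells and 0.07 in untreated cells. Ei24 was 0.48 ± 0.07 higher on the log2 scale, or 1.40-fold with a 95% confidence interval from 1.26 to 1.55, and its adjusted p of 0.00677 (limma) was the lowest of the 10 genes. It was called in each of the 6 fits that left out 1 array, with adjusted p-values from 0.0107 to 0.0379 (limma), and in the fit to all probe sets of the table (0.0382). None of the other 9 genes was called in all of these fits.

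Cdkn2aip encodes a binding partner of the tumour suppressor ARF that acts on p53. Cdkn2aip (probe set 10578619) had log2 values of 9.34, 9.34 and 9.53 in tamoxifen cells and 9.48, 9.53 and 9.43 in untreated cells. Tamoxifen replicate 3 was as high as the highest untreated array. The difference of -0.07 ± 0.07 on the log2 scale was not called (limma adjusted p = 0.578), and its 95% interval ran from -0.24 to 0.09.

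Wee1, the cell cycle gene of the set, encodes the kinase that holds Cdk1 inactive until a cell is ready for mitosis. Wee1 (probe set 10556266) had log2 values of 11.81, 11.78 and 11.90 in tamoxifen cells and 11.64, 11.61 and 11.65 in untreated cells. The groups did not overlap, and the gap between them was smaller than that of Casp2, Ei24, Mbd2 or Tnfaip1. The difference was 0.19 ± 0.06 on the log2 scale, or 1.14-fold, and was not called (limma adjusted p = 0.0936, and 0.0548 with the replicate number as a block).

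The ubiquitin ligase adaptors Tnfaip1 and Fbxl5 had values on opposite sides of 0. Tnfaip1 is a substrate adaptor of Cul3 ligases. Tnfaip1 (probe set 10388869) had log2 values of 10.28, 10.36 and 10.32 in tamoxifen cells against 9.985, 9.996 and 10.069 in untreated cells. It had the narrowest spread of the genes that rose, with SDs of 0.04 in tamoxifen cells and 0.05 in untreated cells. Tnfaip1 was 0.30 ± 0.06 higher on the log2 scale, or 1.23-fold with a 95% confidence interval from 1.12 to 1.36 and an adjusted p of 0.0211 (limma).

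Fbxl5 is the iron-binding substrate receptor of an SCF ligase that removes the iron regulatory protein Ireb2 when iron is plentiful. Fbxl5 (probe set 10529801) had log2 values of 9.87, 9.76 and 9.71 in tamoxifen cells and 9.92, 9.91 and 9.90 in untreated cells. All tamoxifen arrays were lower, replicate 1 by a small margin, while the untreated arrays were nearly equal (SD 0.08 in tamoxifen cells and 0.01 in untreated cells). The difference of -0.13 ± 0.06 was not called (limma adjusted p = 0.249), and its 95% interval ran from -0.28 to 0.01.

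Rhoc, whose protein acts on the actin cytoskeleton and cell migration, showed no detectable difference. Rhoc (probe set 10495054) had log2 values of 10.79, 10.64 and 10.57 in tamoxifen cells and 10.59, 10.77 and 10.57 in untreated cells. The groups covered nearly the same range. The difference was 0.02 ± 0.08 (limma adjusted p = 0.904), and its 95% interval from -0.17 to 0.21 excludes changes of the size seen for Casp2 and Ei24 in either direction.

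Txnip, which encodes an alpha-arrestin that binds thioredoxin and lowers glucose uptake, lay on the other side from the genes that rose. Txnip (probe set 10494428) had log2 values of 13.06, 12.64 and 12.85 in tamoxifen cells and 13.31, 12.99 and 13.15 in untreated cells. Tamoxifen replicate 1 lay above untreated replicate 2, so the groups overlapped, and the difference of -0.30 ± 0.12 on the log2 scale was not called (limma adjusted p = 0.153). Arrays of the same replicate number moved together. The tamoxifen array was lower than its untreated partner by a log2 difference of -0.25, -0.35 and -0.30 in the 3 pairs. The SD of these pair differences was 0.05, against SDs within the groups of 0.21 in tamoxifen cells and 0.16 in untreated cells. With the replicate number as a block Txnip was called lower (limma adjusted p = 0.0109), where 9.54% of all genes were called lower.

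The promoter of Txnip is shown because its transcription is known to follow glucose through a carbohydrate response element, a pair of E-box-like motifs bound by Mlx together with Mlxip or Mlxipl, and those partners are among the genes described below. The 300 bases at chr3:96557707-96558006 (RefSeq, GRCm38.p6, plus strand) run from 250 bases before the start of the gene to 50 after it. The capitals mark 2 copies of CACGNG with 5 bases between them, from 85 to 69 bases before the start.
Txnip promoter: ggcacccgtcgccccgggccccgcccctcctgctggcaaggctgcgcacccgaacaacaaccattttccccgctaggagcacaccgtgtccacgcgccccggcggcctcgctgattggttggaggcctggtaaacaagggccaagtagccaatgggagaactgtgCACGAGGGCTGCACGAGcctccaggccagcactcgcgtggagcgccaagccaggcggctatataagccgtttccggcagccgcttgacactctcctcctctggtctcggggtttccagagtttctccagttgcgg
Searched on both strands, that pattern was present in 16 of 32851 RefSeq promoter windows of this length (0.0487%). The pattern was written down after the Txnip window had been read. The perfect E-box CACGTG, which is not in the Txnip window, was present in 7.15% of the windows, the window of Arrdc4 among them. Both patterns have the core CACG in common, but the Arrdc4 window did not hold the pattern marked in Txnip. The windows of Arrdc1, Arrdc2 and Arrdc3 held neither pattern. A match is a description of the letters and no measurement of binding.

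Of the regulators of gene expression in the set, Mbd2 rose and Irf2 was not called. Mbd2 binds methylated CpG sites and brings the NuRD deacetylase complex to them. Mbd2 (probe set 10456566) had log2 values of 10.03, 10.19 and 10.15 in tamoxifen cells against 9.71, 9.73 and 9.81 in untreated cells. The groups were well separated. Mbd2 was 0.37 ± 0.07 higher on the log2 scale, or 1.30-fold with a 95% confidence interval from 1.17 to 1.44 (limma adjusted p = 0.0153).

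Irf2 is an interferon regulatory factor that competes with Irf1 for the same promoter elements. Irf2 (probe set 10571705) had log2 values of 6.41, 6.22 and 6.55 in tamoxifen cells and 6.15, 5.96 and 6.07 in untreated cells. The groups did not overlap, though tamoxifen replicate 2 lay only a little above untreated replicate 1. The difference was 0.33 ± 0.09 on the log2 scale, or 1.26-fold, with an adjusted p of 0.0654 (limma). It was called with the replicate number as a block (0.0127), where 7.87% of all genes were called higher, and with array weights (0.0375). It was called in 0 of the 6 leave-one-out fits. The log2 change of Irf2 was 0.28 under both quantile and cyclic loess normalisation of the deposited values (limma adjusted p = 0.129 and 0.12). Irf2 was the 1 gene of the 10 whose signal lay among the dimmest 40% of genes, where RMA compresses changes towards 0.

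**Figure D2:**
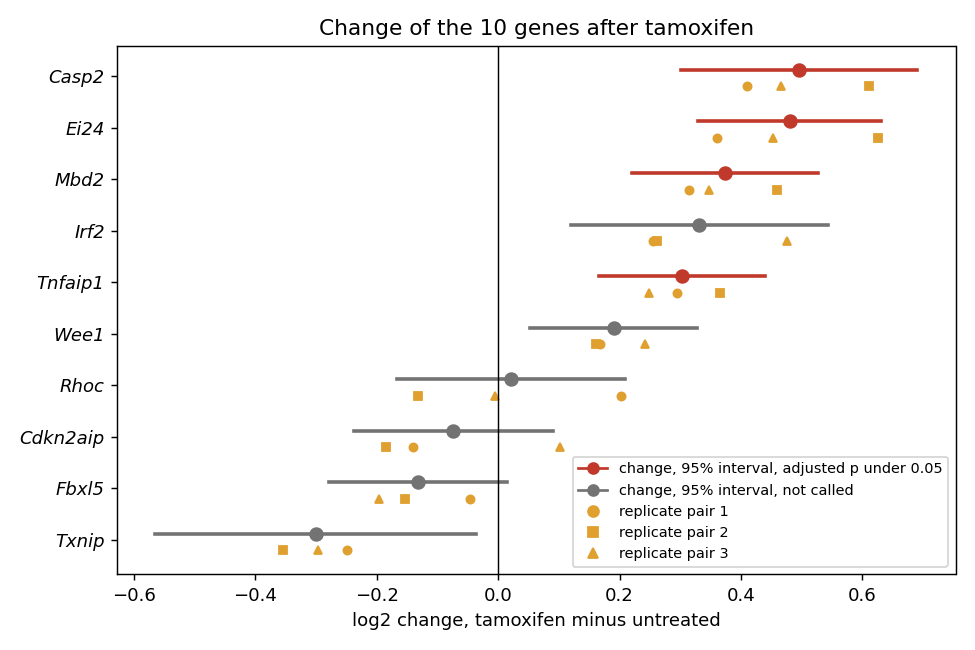
Log2 change, tamoxifen minus untreated (x axis), of the 10 genes in order of size; large circles with bars show limma's estimate and 95% interval (red where the adjusted p was under 0.05), and small yellow markers show the difference within each replicate pair. Casp2, Ei24, Mbd2, Irf2, Tnfaip1 and Wee1 are positive in all 3 pairs, Fbxl5 and Txnip are negative in all 3, and Rhoc and Cdkn2aip have pairs on both sides.

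The replicate pairs gave the same picture for most of the set. Within pairs 1, 2 and 3 the median log2 difference of the 10 genes was 0.23, 0.21 and 0.25. In pair 2 the log2 differences of Casp2, Ei24, Mbd2 and Tnfaip1 were their largest, at 0.61, 0.63, 0.46 and 0.37, whereas for Irf2 and Wee1 the largest was that of pair 3, at 0.48 and 0.24. Pair 1 had the lowest values for Casp2, Ei24 and Mbd2, at 0.41, 0.36 and 0.31. With the replicate number as a block, 5 of the 10 were called higher and 1 lower, namely the 4 genes above with Irf2, and Txnip. Over all genes the blocked fit called 7.87% higher and 9.54% lower.

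The calls of Casp2, Mbd2 and Tnfaip1 rested on having all arrays. Each was called in 3 of the 6 fits that left out 1 array, and none of these 3 genes was called without tamoxifen replicate 2, without tamoxifen replicate 3 or without untreated replicate 2; there limma's adjusted p ran up to 0.064 for Casp2, 0.0716 for Mbd2 and 0.0958 for Tnfaip1. In those 3 fits 1 of the 10 genes, Ei24, was called. The estimates themselves moved little, from 0.45 to 0.58 for Casp2, 0.34 to 0.42 for Mbd2 and 0.28 to 0.33 for Tnfaip1. In the fit to all 35556 probe sets, which takes in those without a listed gene, these 3 genes were also not called (0.062, 0.0595 and 0.0665).

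**Figure D3:**
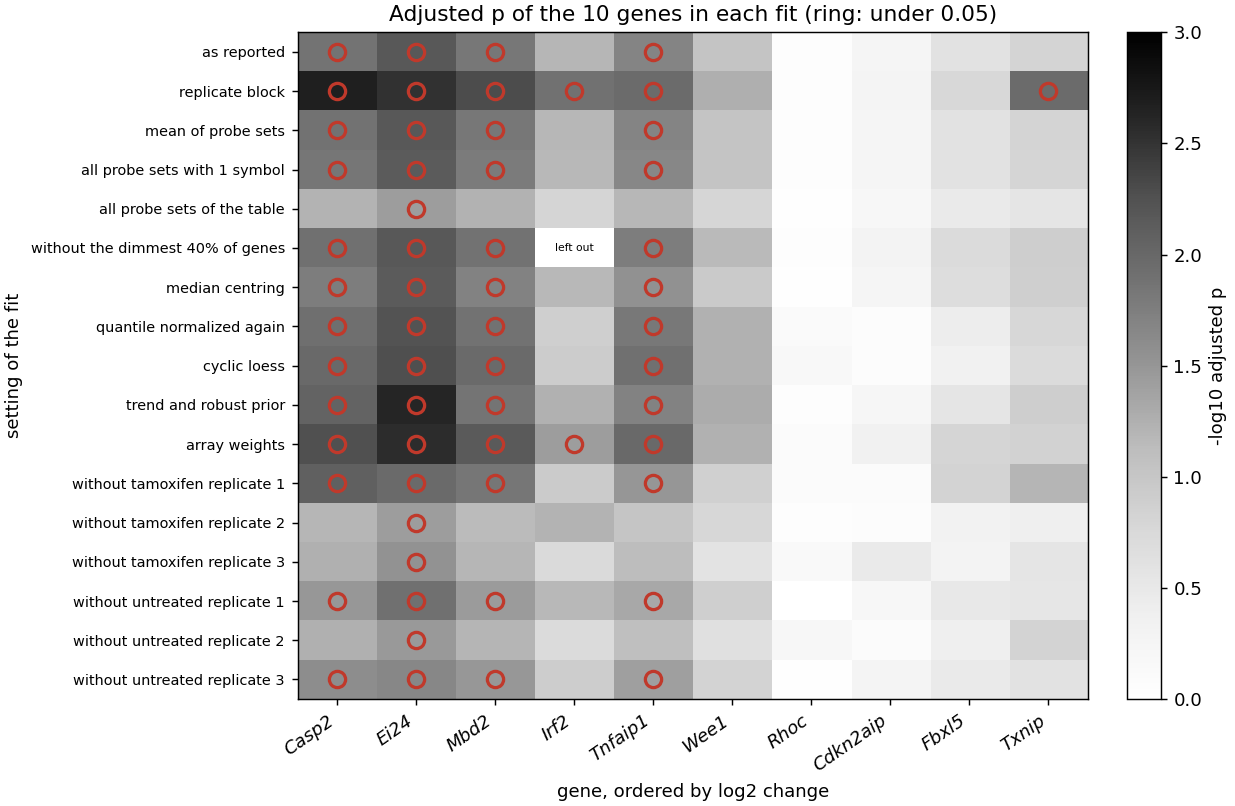
Limma's adjusted p of each gene (x axis, ordered by log2 change) in each setting of the fit (y axis), shaded by its −log10, with a red ring where it was under 0.05. Ei24 is ringed in every setting, Casp2, Mbd2 and Tnfaip1 lose the ring in the same 4 settings, Irf2 gains it with the replicate block and with array weights, and Txnip gains it with the block.

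The neighbours of these genes were set beside them in lists made for this comparison with earlier results of these arrays known. Of 146 listed genes 135 were measured, 13 of them were called higher and 7 lower. The counts of each list stand beside shares over all genes of 3.79% called higher and 3.99% lower, or 7.87% and 9.54% with the replicate block, and a single call in a list of 14 to 20 genes is not far from such a share. Of these 20, 5 were called whichever array was left out: Rb1, Dazap2, Lefty1, Arrdc3 and Ddit4. The other 15 lost the call in 1 to 5 of the 6 leave-one-out fits. Of the 20, the number lost was 2, 15 and 14 without tamoxifen replicates 1, 2 and 3, and 8, 12 and 11 without untreated replicates 1, 2 and 3, with limma adjusted p-values up to 0.156.

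Of 16 measured other described targets of the 2 microRNA families, 5 rose, 0 fell and 11 were not called, or 8 rose and 0 fell with the replicate block. Their median log2 change was 0.21, with 13 positive and 3 negative values; the list was drawn up from described targets whose changes were partly known. The retinoblastoma gene Rb1 had mean log2 values of 10.53 ± 0.04 in tamoxifen cells and 9.80 ± 0.16 in untreated cells (SD, n = 3), and Dazap2, a small proline-rich protein, had 11.11 ± 0.08 in tamoxifen cells and 10.41 ± 0.06 in untreated cells. Their log2 changes, 0.73 ± 0.09 for Rb1 and 0.70 ± 0.07 for Dazap2 (limma SE), were larger than the estimate for any of the 10 genes.

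Around Casp2, the other caspases and their partners did not move together. Of 14 measured, Casp8 rose, Bid fell and 12 were not called, with a median log2 change of 0.01; with the replicate block 1 rose and 3 fell. Casp8, the initiator caspase of death receptors, had mean log2 values of 9.29 ± 0.15 in tamoxifen cells and 8.93 ± 0.03 in untreated cells (SD, n = 3; limma adjusted p = 0.0297). Bid, the BH3 protein that Casp8 cleaves to reach the mitochondrion, had 9.91 ± 0.06 in tamoxifen cells and 10.34 ± 0.09 in untreated cells (limma adjusted p = 0.0112). Bid kept its call in 5 of the 6 leave-one-out fits, all but that without tamoxifen replicate 2, and Casp8 in 1. The adaptors of Casp2, picked outside the naming rule, had log2 changes of 0.09 ± 0.09 for Pidd1 and 0.07 ± 0.08 for Cradd, neither called.

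Around Ei24 and Cdkn2aip, 12 genes of the p53 and ARF axis were measured, of which 2 rose, 0 fell and 10 were not called (median log2 change 0.04). Ccng1, a cyclin, rose by 0.33 ± 0.06 on the log2 scale and Perp, a membrane protein of desmosomes and apoptosis, by 0.42 ± 0.09 (limma adjusted p = 0.0173 and 0.0263). Both are known targets of p53, as are Mdm2, Pmaip1, Bbc3, Sesn2 and Zmat3, which were picked outside the naming rule. None of these was called, and their log2 changes were -0.05, -0.02, -0.03, 0.00 and 0.15. The p53 targets Cdkn1a and Bax were listed but not measured. A p53 response was not tested. Ccng1 and Perp each kept the call in 2 of the 6 leave-one-out fits. Of 20 autophagosome genes, Atg2a, a lipid transfer protein of the growing autophagosome, rose by 0.34 ± 0.06 (limma adjusted p = 0.0167) and 19 were not called, with a median of 0.00. With the replicate block 2 of the 20 rose and 5 fell, where 7.87% of all genes were called higher and 9.54% lower.

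Of 14 measured genes of the G2/M switch around Wee1, 0 rose, Cdc25c fell and 13 were not called, with a median log2 change of -0.09. Cdc25c, a phosphatase that opposes Wee1 on Cdk1, had mean log2 values of 9.31 ± 0.07 in tamoxifen cells and 9.64 ± 0.11 in untreated cells (SD, n = 3; limma adjusted p = 0.0368). Its call held in 1 of the 6 leave-one-out fits and was lost under cyclic loess normalisation (0.0602). At an unadjusted limma p under 0.05, 0 of the 14 were higher and 4 were lower. By that p, 2283 of all 19938 genes were higher and 2602 lower.

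Partners of Mbd2 gave no calls by limma. Of 17 measured methyl-CpG-binding proteins and NuRD subunits, 0 rose and 0 fell, with a median log2 change of -0.03. By an unadjusted limma p under 0.05, 1 was higher and 0 were lower, where 24.5% of all genes were in either direction. The smallest p was that of the NuRD subunit Gatad2b, whose log2 change was 0.22 ± 0.06 (limma adjusted p = 0.0546, or 0.0353 with the replicate block). Of 10 measured interferon regulatory factors and Irf2-binding proteins, 2 rose and 8 were not called (median -0.02). Irf9, the DNA-binding subunit of the interferon-activated ISGF3 complex, rose by 0.40 ± 0.07 on the log2 scale and Irf2bp2, a corepressor that binds Irf2, by 0.35 ± 0.07 (limma adjusted p = 0.0135 and 0.0222), and with the replicate block 3 of the 10 rose. The leave-one-out fits kept the call of Irf9 in 4 of 6 and that of Irf2bp2 in 2 of 6.

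Of 16 measured genes of iron homeostasis and SCF ligases around Fbxl5, 0 rose, Rbx1 fell and 15 were not called (median log2 change -0.02). Rbx1, the RING subunit of cullin ligases, had a log2 change of -0.26 ± 0.07 with an adjusted p of 0.0476 (limma); the call held in 1 of the 6 leave-one-out fits and was lost under cyclic loess normalisation (0.0687). Ireb2, whose protein Fbxl5 removes, was picked outside the naming rule. Its messenger RNA had a log2 change of 0.03 ± 0.06, and its protein was not measured.

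The thioredoxin system and the alpha-arrestins around Txnip held the most calls of the lists of partners, in both directions. There 16 genes were measured: 2 rose, 4 fell and 10 were not called, or 4 rose and 5 fell with the replicate block, and the median log2 change was -0.08. Arrdc3, an alpha-arrestin related to Txnip, rose by 0.49 ± 0.07 on the log2 scale (limma adjusted p = 0.00754) and Prdx3, the mitochondrial peroxiredoxin, by 0.30 ± 0.06 (limma adjusted p = 0.0232). Ddit4, an inhibitor of mTORC1, had log2 values of 10.39, 10.10 and 10.13 in tamoxifen cells and 11.45, 11.01 and 10.92 in untreated cells, and fell by 0.92 ± 0.14 (limma adjusted p = 0.00889). In each pair of equal replicate number the tamoxifen array was the lower of the pair.

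The glucose-responsive factor Mlxipl fell by 0.31 ± 0.07 on the log2 scale (limma adjusted p = 0.0299). The remaining falls, named here after their values were seen, were those of Mlxip, which pairs with Mlx, at -0.35 ± 0.09 (limma adjusted p = 0.0438) and of the alpha-arrestin Arrdc4, a known target of the same factors, at -0.40 ± 0.09 (limma adjusted p = 0.03). Mlx and Slc2a1 of the same list were not called, and Txnip was not called without the replicate block. A response of these glucose-responsive factors was not tested. Arrdc4 had log2 values of 10.69, 10.40 and 10.47 in tamoxifen cells and 11.04, 10.86 and 10.88 in untreated cells. Like Txnip it was highest in replicate 1 of both groups and lowest in replicate 2 of both. The same order was seen in Gabarapl1 and Ccna2 of other lists, and its share over all genes was not counted. Arrdc4, Mlxip, Mlxipl and Prdx3 each kept the call in 1 of the 6 leave-one-out fits, and Mlxip lost it under cyclic loess normalisation (0.0677).

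**Figure D4:**
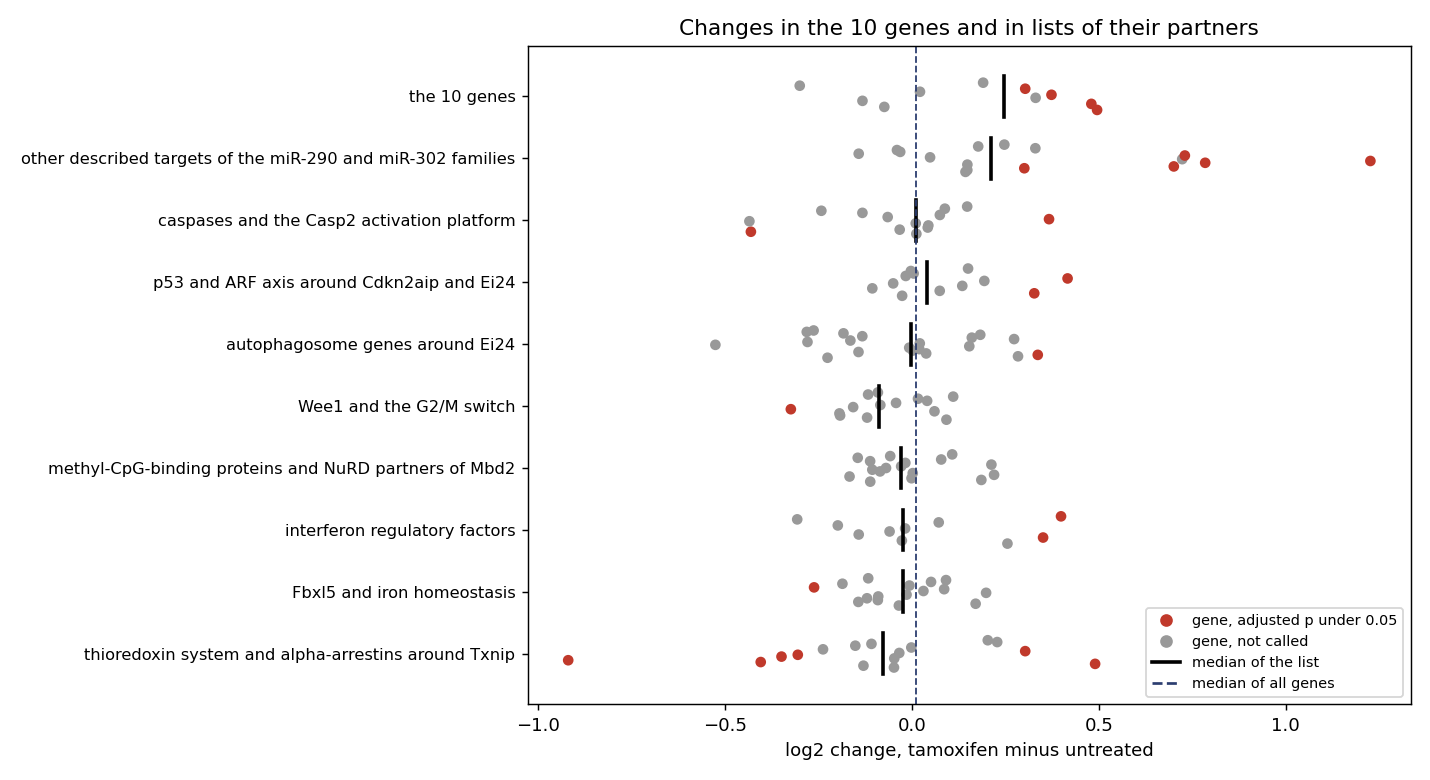
Log2 change, tamoxifen minus untreated (x axis), of each measured gene in the 10 genes and in 9 lists of related genes (y axis); red points had a limma adjusted p under 0.05, grey points did not, black bars mark list medians and the dashed line the median of all genes. The medians of the 10 genes (0.25) and of the other described targets (0.21) lie to the right of the line, and those of the lists of partners lie between -0.09 and 0.04.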

How the data were processed

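RNA of 3 tamoxifen-treated and 3 untreated samples was hybridised to Affymetrix arrays. Per the submitters' processing notes, the authors used RMA and Affymetrix Expression Console 1.2, and the range of the deposited numbers shows log2 intensities. RMA subtracts background, quantile-normalises the arrays and gives 1 value per probe set, which hides any shift common to nearly all transcripts. No genome build of the array was given in the sources used here. Of 35556 probe sets, 21789 had 1 listed gene symbol, 1621 had several and 12146 had no listed gene. The brightest probe set of each gene was kept, giving 19938 genes with no filter on dim ones. The table had 0 columns of other samples.

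The test was two-sided, from lmFit and eBayes of limma 3.58.1 under R 4.3.3, with Benjamini-Hochberg adjustment over all 19938 genes. Named genes were the 10 targets, Dicer1 and, from each list, up to 2 called genes per direction by smallest p, or the 1 gene with the smallest p where none was called. The targets and lists were chosen with earlier results of these data known. One list of partner genes is not reported here. The code was tested on simulated data.

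Same-numbered arrays deviated together from their group means (correlations across genes of 0.356, 0.345 and 0.389, against -0.254 to -0.115 for unequal numbers), so the numbers were taken to pair the samples, and a blocked fit was added. Deviations cancel out within a group, so positive same-number values force negative ones elsewhere, and the negative ones are no separate support. Other settings tried were averaging the probe sets of a gene, testing all probe sets with 1 symbol or all in the table, dropping the dimmest 40% of genes, centring on medians, quantile or cyclic loess normalisation of the deposited values, a trended robust prior, array weights and omitting each array. Precision is limited by having 6 arrays.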

Additional observations from a re-analysis of the deposited data

How the results depend on the processing

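The 10 genes were refitted under 16 alternatives. Of 159 refitted changes of single genes, 140 kept their direction and their side of the threshold, 12 lost the call, 3 gained it and 4 changed sign, all of them of Rhoc (log2 change of Rhoc -0.038 with array weights, and -0.041 to 0.085 over the leave-one-out fits). With the replicate block 1 gene was called lower, and the block changed no other call of the 10 than those of Irf2 and Txnip; all genes called came to 1570 higher and 1902 lower, and genes of the partner and target lists to 36. Fitting all deposited probe sets called 1 of the 10, higher, with 221 probe sets higher, 115 lower and 4 list genes. Array weights called 1393 genes lower. Without the dimmest 40% of genes, which leaves out Irf2, the median of the remaining 9 was 0.19. When 1 array was left out, 1 to 4 of the 10 were called (1 to 4 higher, 0 lower), their median ran from 0.20 to 0.26, genes called from 221 to 686 higher and 134 to 894 lower, and list genes called from 5 to 20. The lowest counts of genes and of list genes were those without tamoxifen replicate 2. The cause of these shifts was not tested. RMA gives no detection call, so a dim signal such as that of Irf2 cannot be told from background.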
